A study of Mus musculus with 23 samples.

Results

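The genes described here are 10 markers of homeostatic microglia, P2ry12, Tmem119, Cx3cr1, Csf1r, Aif1, Sall1, Selplg, Siglech, Gpr34 and Olfml3. They were taken by name, and each symbol matched 1 Ensembl gene among the 52636 in the count files. Counts were obtained for 8 of the 10, and all 8 were among the 17788 genes that passed a filter on low counts. P2ry12 and Gpr34 had 0 counts in every library. None of the 8 counted genes differed by genotype or by hypoxia at the threshold used, an adjusted p under 0.05. The lowest adjusted p, 0.0543, belonged to Olfml3, whose abundance in P301S hippocampus was 0.718 of that in WT, averaged over conditions.

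Whole hippocampus was sequenced in 23 libraries from mice of a mixed C57Bl6 + Balbc background, in 4 groups. P301S hypoxia (n = 6) and P301S normoxia (n = 5) carried the P301S tau genotype, in which tau has a mutation known from familial frontotemporal dementia. WT hypoxia (n = 6) and WT normoxia (n = 6) were the wild-type groups. By the title of the series the hypoxia was chronic and intermittent. Each of 4 Y-linked genes had at least 873 counts in every library, so every library held male tissue. The exposure regimen, the promoter of the tau transgene, and the mice's sex and age were not stated in the sources used here. Whether libraries are separate animals was not stated either, so p-values here describe the spread among libraries. A number in the titles is shared by 5 of the 6 WT normoxia libraries and other numbers by all WT hypoxia libraries (4 and 2 of them), and no number is shared between P301S and WT libraries. Each P301S library has a number of its own, so none is shared between conditions there either. What the number stands for therefore cannot be told apart from genotype or from hypoxia.

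Microglia settle in the brain before birth and are maintained there by signals from their surroundings. Neurons supply ligands for the receptors Csf1r and Cx3cr1, and transforming growth factor beta acts with the transcription factors PU.1 and Sall1 to keep the homeostatic program on. In mouse models of neurodegeneration, microglia near lesions lower P2ry12, Tmem119 and Cx3cr1 and raise genes such as Apoe, Cst7 and Lpl, a state called disease-associated. In whole tissue, fewer microglia and less RNA per microglial cell cannot be told apart.

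Promoter sequences from RefSeq (GRCm38.p6), 250 bases before to 50 after a transcription start, were at hand for 6 of the 10 genes. Those of Cx3cr1 (chr9:120068247-120068546, minus strand) and Siglech (chr7:55767934-55768233, plus strand) are shown because both genes correlated with the mean of the other counted genes between libraries. Those of Aif1 (chr17:35176003-35176302, minus strand) and Olfml3 (chr3:103737952-103738251, minus strand) are shown because both had correlations below 0 with that mean. Capitals mark GAGGAA, the core of PU.1 sites, or the related ETS core CAGGAA, on either strand (TTCCTC or TTCCTG).
Cx3cr1: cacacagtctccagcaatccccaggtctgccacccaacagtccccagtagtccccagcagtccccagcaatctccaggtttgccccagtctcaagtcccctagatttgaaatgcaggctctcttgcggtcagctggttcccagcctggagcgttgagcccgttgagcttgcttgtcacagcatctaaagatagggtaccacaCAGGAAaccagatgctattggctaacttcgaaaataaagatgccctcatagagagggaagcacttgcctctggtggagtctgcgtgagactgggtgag
Siglech: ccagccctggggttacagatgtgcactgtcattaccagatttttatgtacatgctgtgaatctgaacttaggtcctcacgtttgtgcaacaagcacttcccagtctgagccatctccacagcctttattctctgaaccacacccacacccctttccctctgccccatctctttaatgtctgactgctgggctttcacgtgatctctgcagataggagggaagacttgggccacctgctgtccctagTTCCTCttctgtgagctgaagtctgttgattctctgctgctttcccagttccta
Aif1: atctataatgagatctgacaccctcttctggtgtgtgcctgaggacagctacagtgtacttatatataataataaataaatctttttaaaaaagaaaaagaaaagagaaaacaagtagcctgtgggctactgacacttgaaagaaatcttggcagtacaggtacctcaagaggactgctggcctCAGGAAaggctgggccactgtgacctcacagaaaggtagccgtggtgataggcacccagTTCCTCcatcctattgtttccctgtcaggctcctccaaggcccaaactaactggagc
Olfml3: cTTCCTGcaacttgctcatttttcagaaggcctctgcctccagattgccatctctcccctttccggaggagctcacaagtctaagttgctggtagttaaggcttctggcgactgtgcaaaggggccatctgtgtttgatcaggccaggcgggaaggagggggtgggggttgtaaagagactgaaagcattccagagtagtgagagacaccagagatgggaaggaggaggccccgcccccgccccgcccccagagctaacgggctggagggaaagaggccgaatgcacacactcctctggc
GAGGAA was present in Aif1 and Siglech, 2 of the 6 genes, and in 28.1% of all 32544 RefSeq promoters of the same length. CAGGAA was present in Cx3cr1, Aif1 and Olfml3, 3 of the 6, against 30.5% of all promoters. The SMAD palindrome GTCTAGAC was in none of the 6, against 0.215% of all. These percentages are per promoter and the counts per gene, and the 6 genes have 8 promoters (3 of them of Sall1). GAGGAA and CAGGAA share the letters AGGAA but cannot match at the same position, and a match is a description of the sequence only. The RefSeq start used for Cx3cr1 lies 1583 bases inside the counted gene, while those of Aif1 and Siglech lie 16 and 6 bases from its start.

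P2ry12 encodes the ADP receptor that steers microglial processes towards injury, and Gpr34 a receptor for lysophosphatidylserine. Neither could be measured. P2ry12 (chromosome 3, 59216272 to 59262871, minus strand, GRCm38) lies wholly inside Med12l (59005825 to 59318682, plus strand). Gpr34 (chromosome X, 13632089 to 13640858, plus strand) lies wholly inside Cask (13517080 to 13851367, minus strand). The authors counted reads over whole gene bodies with no strand setting, and the counting tool drops reads that overlap more than 1 gene by default. Every read of P2ry12 or Gpr34 also falls on its host gene, so the 0 counts carry no information on expression. The host genes themselves averaged 48.1 CPM (Med12l) and 78.5 CPM (Cask), where CPM is the count scaled to library size with TMM factors.

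Overlap also trimmed other members. The counted body of Cx3cr1 (chromosome 9, 119901616 to 120069879, minus strand) spans 168 kb, of which 57.4% lies under 9 other genes (Ttc21a, itself at 0 counts, covers the largest part), while 4415 of its 4505 exon bases lie under none. Csf1r (chromosome 18, 61105572 to 61132149, plus strand) shares 16.4% of its exon bases with other genes, mainly Hmgxb3. Tmem119, Aif1, Sall1, Selplg, Siglech and Olfml3 overlap no other gene.

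**Figure D1:**
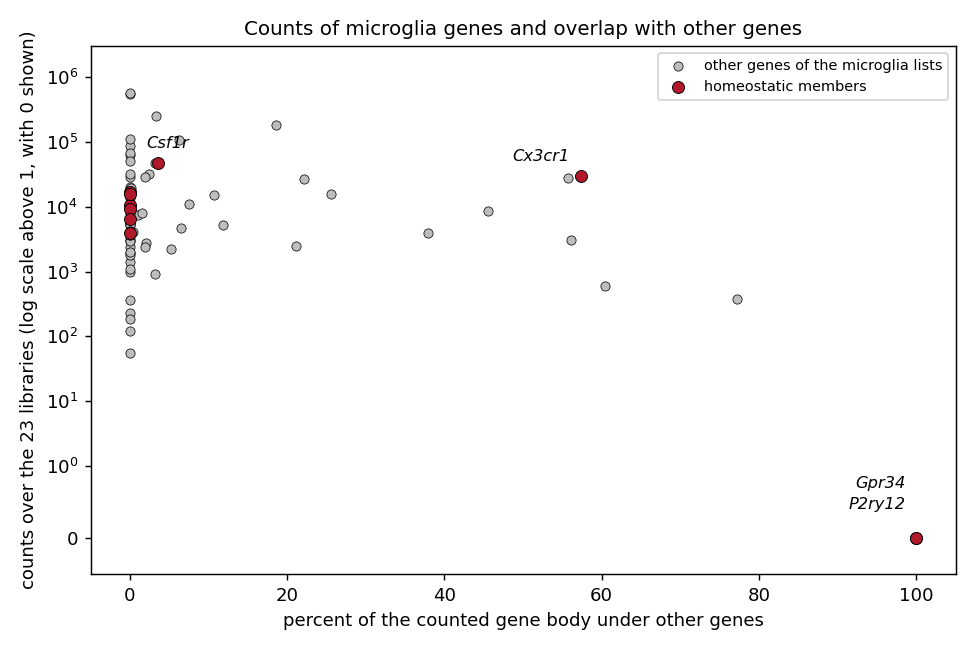
Counts summed over the 23 libraries (y axis, log scale above 1 with 0 shown) against the percent of the counted gene body that lies under other genes (x axis), for the genes of 5 microglia lists. Members are red and other genes grey: P2ry12 and Gpr34 sit together at 100% overlap and 0 counts, while Cx3cr1 at 57.4% kept 29983 counts.

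The 8 counted genes were compared with each other per kilobase of exon that no other gene covers, although the counts also hold reads from introns. On that scale Csf1r was the most abundant, with 19.2 ± 1.98 CPM per kb over all libraries (SD, n = 23). Cx3cr1 followed with 12.3 ± 1.11 and Tmem119 with 8.38 ± 1.13 CPM per kb. Selplg had 6.63 ± 0.860, Sall1 5.84 ± 0.478, Siglech 4.98 ± 0.582, Aif1 4.56 ± 1.41 and Olfml3 1.90 ± 0.647 CPM per kb. Neighbours in this order held it in 22 or 23 of the 23 libraries, except Selplg above Sall1, in 19, and Siglech above Aif1, in 15. Siglech and Aif1 were 0.418 ± 1.44 CPM per kb apart (SD of the difference), so their order is not fixed by these data.

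Spread between libraries of a group divided the genes. Pooled within groups, the SD of log2 CPM was 0.10 for Sall1, 0.12 for Cx3cr1, 0.15 for Csf1r, 0.17 for Siglech, 0.18 for Tmem119 and 0.19 for Selplg. It was 0.42 for both Aif1 and Olfml3, whose counts of 87 to 325 and 167 to 537 per library would give 0.11 and 0.09 from counting alone. Fold changes of these last genes therefore carry the widest errors.

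The membrane receptors Csf1r and Cx3cr1 came first in abundance. Csf1r encodes the receptor for CSF1 and IL-34, on which microglial survival depends. Its lowest, median and highest values, given in that order here and for the genes that follow, were 74.7, 86.2 and 94.2 CPM in P301S hypoxia, and P301S normoxia replicates 1 to 5 had 111, 68.5, 81.7, 79.5 and 76.6 CPM. In WT hypoxia they were 82.0, 84.6 and 95.6 CPM, and in WT normoxia 79.7, 85.2 and 98.8 CPM. All groups overlapped, and the highest and lowest libraries of the series were both P301S normoxia. The log2 fold change of P301S against WT was -0.07 in normoxia (SE 0.09, adjusted p = 0.702) and -0.02 in hypoxia (SE 0.08, adjusted p = 0.922). Averaged over conditions, the 95% interval of the P301S to WT ratio ran from 0.888 to 1.06.

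Cx3cr1 encodes the receptor for fractalkine, a ligand shed by neurons. It had 48.3, 55.0 and 58.3 CPM (lowest, median, highest) in P301S hypoxia and 67.8, 48.7, 60.0, 59.4 and 52.8 CPM in P301S normoxia replicates 1 to 5. The same values were 47.1, 51.1 and 55.6 CPM in WT hypoxia and 52.1, 55.7 and 59.1 CPM in WT normoxia. Hypoxic libraries lay lower within each genotype, with overlap: 5 of 6 were below the normoxia mean in P301S and 5 of 6 in WT. The log2 fold change of hypoxia against normoxia was -0.11 in P301S (SE 0.07, adjusted p = 0.511) and -0.13 in WT (SE 0.07, adjusted p = 0.457). Averaged over genotypes it was -0.12 (SE 0.05, unadjusted p = 0.0209, adjusted p = 0.223).

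Siglech, a sialic acid-binding lectin, had 15.7, 17.4 and 20.2 CPM in P301S hypoxia and 20.3, 17.05, 14.8, 13.7 and 15.8 CPM in P301S normoxia replicates 1 to 5. In WT it had 13.8, 16.6 and 18.3 CPM in hypoxia and 14.2, 16.5 and 19.03 CPM in normoxia. All groups overlapped. Its log2 fold changes were 0.13 for P301S against WT in hypoxia (SE 0.10, adjusted p = 0.495) and -0.05 in normoxia (SE 0.10, adjusted p = 0.820).

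Selplg encodes the ligand of P-selectin, a glycoprotein of leukocytes that microglia also carry. It had 24.9, 29.1 and 35.3 CPM in P301S hypoxia and 37.0, 22.4, 31.2, 26.8 and 25.4 CPM in P301S normoxia replicates 1 to 5. In WT it had 26.8, 27.0 and 31.2 CPM in hypoxia and 23.2, 26.3 and 33.1 CPM in normoxia. P301S normoxia again held both ends of the range. Its adjusted p lay between 0.657 and 0.998 in the 7 comparisons.

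Tmem119, a membrane protein used to tell microglia from other macrophages, had 17.6, 19.01 and 21.5 CPM in P301S hypoxia. P301S normoxia replicates 1 to 5 had 21.6, 14.5, 17.8, 15.5 and 15.8 CPM. WT hypoxia had 19.1, 20.9 and 22.3 CPM, and WT normoxia 15.4, 20.8 and 23.3 CPM. In P301S normoxia 4 of 5 libraries were under the WT normoxia mean, and replicate 1 alone was above it. The log2 fold change of P301S against WT was -0.22 in normoxia (SE 0.11, unadjusted p = 0.0483, adjusted p = 0.214) and -0.16 averaged over conditions (SE 0.07, adjusted p = 0.151). Without P301S normoxia replicate 1, Tmem119 passed the threshold in both, at -0.33 (adjusted p = 0.0438) and -0.22 (adjusted p = 0.0327). Calls over all genes rose in the same fit, from 1130 to 1914 in normoxia and from 2333 to 2913 averaged over conditions. With trends in gene length and GC content removed the values of Tmem119 were -0.12 (adjusted p = 0.503) and -0.074 (adjusted p = 0.533).

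Sall1 encodes the zinc finger transcription factor that maintains microglial identity. It had 26.9, 29.8 and 33.2 CPM in P301S hypoxia and 34.7, 30.4, 34.9, 32.9 and 34.7 CPM in P301S normoxia replicates 1 to 5. In WT it had 27.4, 29.5 and 32.9 CPM in hypoxia and 26.4, 31.1 and 31.7 CPM in normoxia. P301S normoxia was the highest group, with 4 of its 5 libraries above every WT normoxia library, but it overlapped each of the others. The log2 fold change was 0.15 for P301S against WT in normoxia (SE 0.06, unadjusted p = 0.0262, adjusted p = 0.154) and -0.15 for hypoxia against normoxia in P301S (SE 0.06, unadjusted p = 0.0238, adjusted p = 0.280). Both comparisons use the same P301S normoxia libraries.

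Aif1 encodes Iba1, the actin-binding protein used to stain microglia. It had 3.95, 6.72 and 7.01 CPM in P301S hypoxia and 5.51, 7.60, 7.03, 6.56 and 3.70 CPM in P301S normoxia replicates 1 to 5. In WT it had 4.50, 7.02 and 9.24 CPM in hypoxia and 4.48, 8.87 and 13.2 CPM in normoxia. WT normoxia spread the most and overlapped every other group. P301S against WT in normoxia gave a log2 fold change of -0.54 (SE 0.23, unadjusted p = 0.0256, adjusted p = 0.152), a ratio of 0.689 with a 95% interval from 0.498 to 0.951. In hypoxia the log2 fold change of P301S against WT was -0.11 (SE 0.22, adjusted p = 0.839).

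Olfml3 encodes a secreted olfactomedin-domain protein of the extracellular matrix. It had 7.26, 8.13 and 13.4 CPM in P301S hypoxia and 14.4, 9.45, 9.24, 12.6 and 6.66 CPM in P301S normoxia replicates 1 to 5. In WT it had 7.65, 11.3 and 17.0 CPM in hypoxia and 7.77, 16.05 and 21.1 CPM in normoxia. The group means ran, in that order, 8.92 ± 2.31, 10.5 ± 3.03, 11.9 ± 3.29 and 15.3 ± 4.46 CPM (SD), with overlap between all of them. P301S against WT averaged over conditions gave a log2 fold change of -0.48 (SE 0.16, adjusted p = 0.0543), a ratio of 0.718 with a 95% interval from 0.569 to 0.906. With DESeq2 the same comparison gave -0.48 with an adjusted p of 0.0205. Leaving out 1 of the 23 libraries put it past the threshold in 4 cases: P301S hypoxia replicate 5 (adjusted p = 0.0256), P301S normoxia replicate 1 (0.0253), WT hypoxia replicate 4 (0.0345) and WT normoxia replicate 6 (0.0173). In the 23 such fits the value ranged from -0.56 to -0.41 and the adjusted p went up to 0.105, and under the 9 alternatives the adjusted p ranged from 0.0205 to 0.173. WT normoxia replicate 6, the one library of its group with another number in its title, had 7.77 CPM, and the 5 that share a number had 13.4 to 21.1 CPM.

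**Figure D2:**
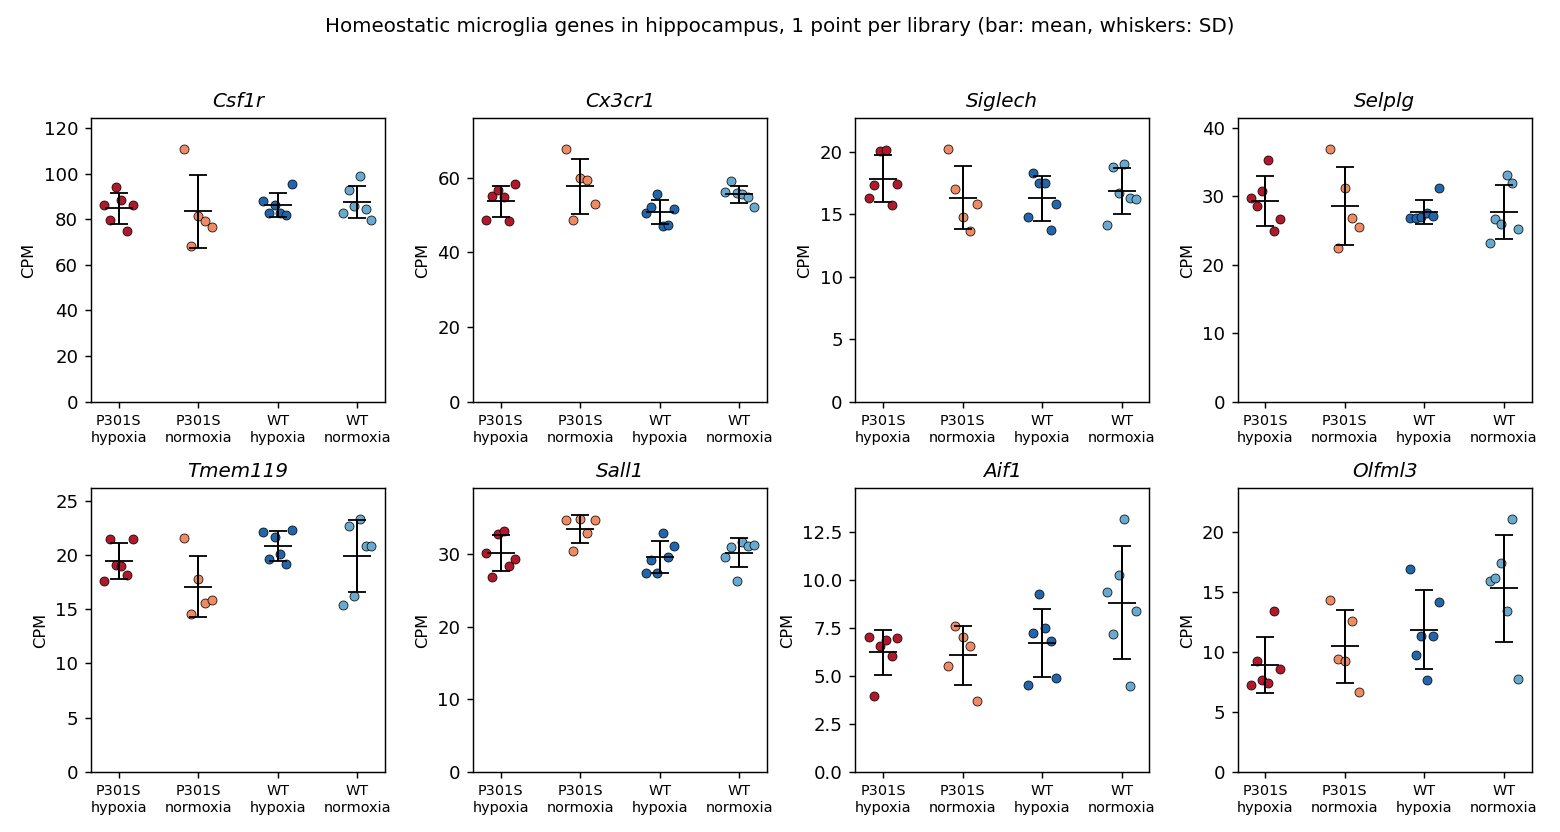
CPM (y axis, from 0) of the 8 counted genes in each group (x axis), 1 point per library, with a bar at the mean and whiskers of 1 SD. The groups overlap for every gene, and P301S normoxia replicate 1, the leftmost point of its group, is the highest library for Csf1r at 111 CPM.

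By edgeR's quasi-likelihood test 0 of the 8 genes passed in each of the 7 comparisons, and DESeq2 called Olfml3 alone, in the averaged genotype comparison. For P301S against WT in normoxia 6.35% of all tested genes passed, and for P301S against WT in hypoxia 1.87%. For hypoxia against normoxia in P301S it was 0.41%, and in WT 0.0731%. Averaging gave 13.1% for genotype and 1.33% for hypoxia, and the interaction of the factors 0.0394%. At an unadjusted p under 0.05 the members numbered 4, Olfml3, Aif1, Sall1 and Tmem119, for P301S against WT in normoxia, where 22.8% of all genes reached that level. They numbered 0 of 8 for P301S against WT in hypoxia (18.2% of all genes) and 1 for hypoxia against normoxia in P301S (13.8%). In WT hypoxia against normoxia (11.6%) and in the interaction (9.43%) they numbered 0, while averaging gave 2 for genotype (27.9%) and 1 for hypoxia (16% of all genes). No member (0 of 8) had groups that did not overlap, in any of the 4 pairwise comparisons. Over all tested genes that share was 3.34% for P301S against WT in normoxia, 1.93% for P301S against WT in hypoxia, 2.13% for hypoxia against normoxia in P301S and 0.691% for hypoxia against normoxia in WT.

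Fold changes of the members had medians near 0. The median log2 fold change was 0.00 for P301S against WT in hypoxia (0.00 over all genes) and -0.06 in normoxia (0.01 over all genes). Hypoxia against normoxia gave 0.03 in P301S and -0.04 in WT (0.00 over all genes in both). Signs were divided, with 4 of 8 positive for P301S against WT in hypoxia and 3 of 8 in normoxia. The mean log2 CPM of the 8 genes was 4.52 ± 0.07 in P301S hypoxia, 4.52 ± 0.18 in P301S normoxia, 4.56 ± 0.05 in WT hypoxia and 4.66 ± 0.11 in WT normoxia (SD over libraries). WT normoxia had the highest mean, and its lowest library, at 4.52, lay within the range of every other group.

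**Figure D3:**
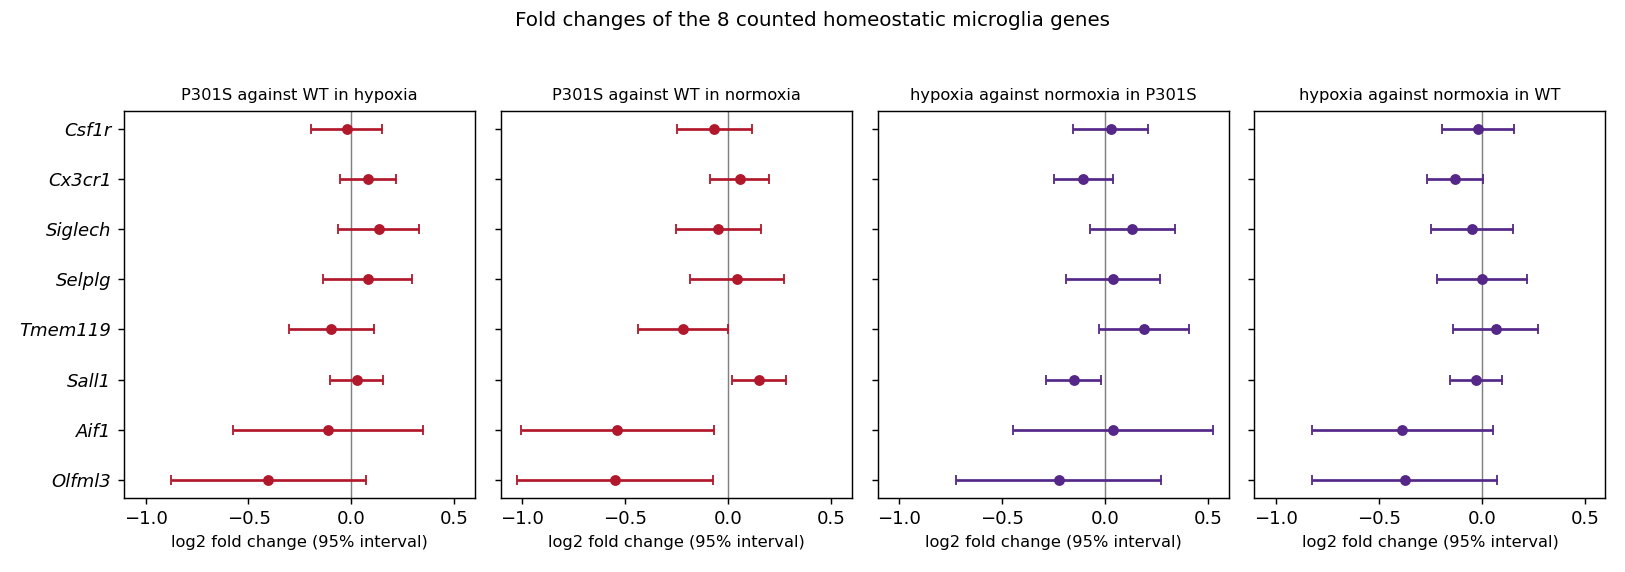
Log2 fold changes (x axis) with 95% intervals for the 8 counted genes (rows) in the 4 pairwise comparisons. Most points lie close to 0 with narrow intervals, while Aif1 and Olfml3 have wide ones, down to -1.005 and -1.03 for P301S against WT in normoxia.

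The width of the intervals differed by gene. For Csf1r, Cx3cr1, Sall1, Selplg and Siglech the 95% intervals of the P301S to WT ratio averaged over conditions lay between 0.888 and 1.16. For Tmem119 the interval ran from 0.806 to 0.994 and for Aif1 from 0.635 to 1.001. For hypoxia against normoxia averaged over genotypes, the interval was 0.861 to 0.987 for Cx3cr1, 0.985 to 1.21 for Tmem119 and 0.882 to 1.0005 for Sall1. The interaction, the hypoxia effect in P301S minus that in WT on the log2 scale, was positive for 7 of 8 genes and largest for Aif1 (0.42, SE 0.32, adjusted p = 0.715). These signs depended on the fit: Cx3cr1, Csf1r and Selplg had interactions of -0.022, -0.017 and -0.031 with a covariate of other microglia genes. Without the 6 libraries lowest in choroid plexus markers they had -0.017, -0.044 and -0.13, and Aif1 had 0.10. Sall1 had the lowest adjusted p of the interaction, 0.685, at -0.13 (SE 0.09). A miss of the threshold does not show that the groups were alike.

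The counted genes were correlated to different degrees from library to library within a group. With each gene's log2 CPM centred within its group, Csf1r had a Pearson correlation of 0.80 with the mean of the other 7 over the 23 libraries (Spearman 0.82). It was 0.66 for Cx3cr1, 0.62 for Selplg, 0.45 for Tmem119 and 0.44 for Siglech. The closest pair was Csf1r and Selplg, at 0.80. Sall1 (0.13), Olfml3 (-0.07) and Aif1 (-0.16) had lower values, and Sall1 and Olfml3 had the most negative pair value, -0.41. That mean is not scaled by gene, so Aif1 and Olfml3, with the widest spread, weigh most in it. Aif1 and Olfml3 had -0.28 with each other. Olfml3 was above 0 with Cx3cr1 (0.32), Csf1r (0.26), Selplg (0.15) and Tmem119 (0.13), and below 0 with Siglech (-0.17). No clean split followed from the pairs, since Sall1 had 0.56 with Selplg and 0.41 with Csf1r, while Cx3cr1 and Siglech had 0.40. The libraries are also the points over which depth and dissection vary. Without the 2 libraries farthest from the median the value was 0.73 for Csf1r, 0.49 for Cx3cr1, 0.46 for Selplg, 0.29 for Siglech, 0.25 for Tmem119 and 0.18 for Sall1, and it was -0.33 for Aif1 and -0.41 for Olfml3.

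P301S normoxia replicate 1 was the library farthest above its group, by 0.27 on the log2 scale averaged over the 8 genes, with 7 of the 8 above the group mean. P301S normoxia replicate 5 was farthest below, by -0.21, with 1 of 8 above, and was the lowest library of its group for Aif1 and Olfml3. Replicate 1 also had the highest sum of other pan-microglial genes in the series, 372 CPM. Without it, the log2 fold changes of P301S against WT in normoxia were -0.20 for Csf1r (adjusted p = 0.0609), -0.15 for Siglech, -0.07 for Selplg, -0.02 for Cx3cr1 and 0.13 for Sall1. With it they were -0.07, -0.05, 0.04, 0.06 and 0.15. Its part in each result was measured in this way, and no cause of its high values was tested.

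**Figure D4:**
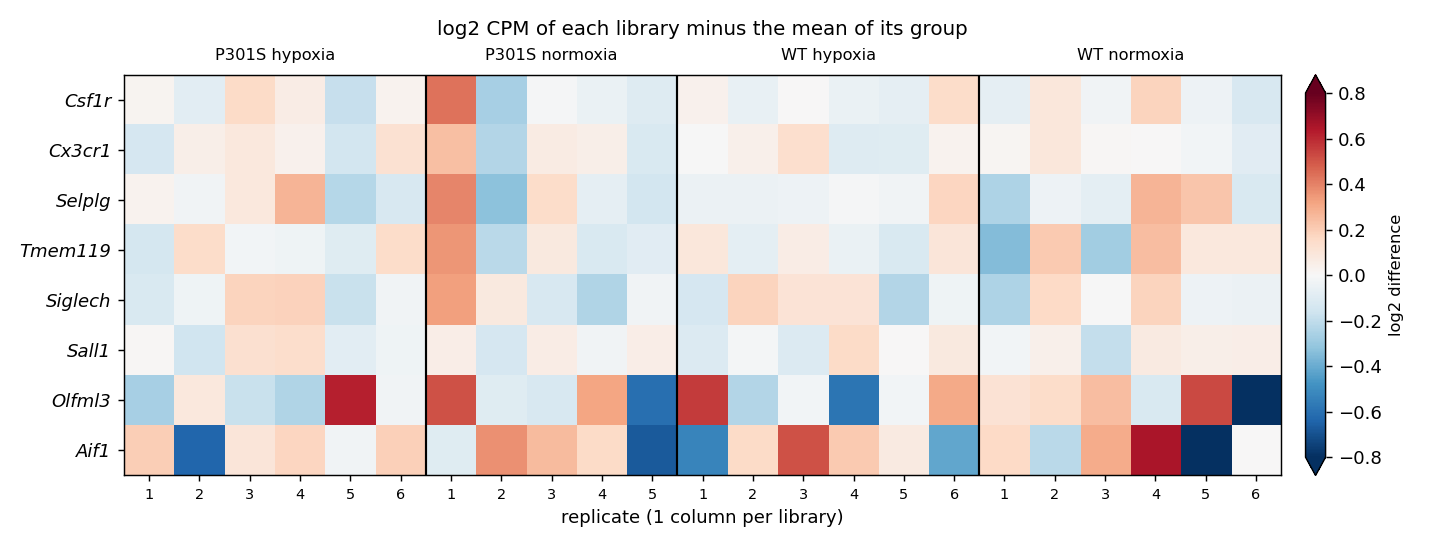
Log2 CPM of each library (columns, by group and replicate) minus the mean of its group, for the 8 counted genes (rows). Color runs from lower (blue) to higher (red) and is capped at both ends of the scale. P301S normoxia replicate 1 is above its group for 7 of 8 genes, and the rows of Olfml3 and Aif1 show wider swings that do not match the rows above them.

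The tested genes outside the list whose centred values followed the mean of the 8 most closely over the 23 libraries were P2ry6 (Pearson 0.84), Anapc15 (0.82), Laptm5 (0.82), Tmem173 (0.82), Acap3 (0.80), Cd37 (0.79), Pex19 (0.78), Grn (0.78), Golga2 (0.77) and Cd68 (0.77). P2ry6, a receptor for UDP, is itself a homeostatic microglia gene, and Laptm5 and Cd68 are lysosomal proteins of myeloid cells. The rest of the 10 are in none of the lists used here. Without the 2 farthest libraries P2ry6 had 0.79, Acap3 0.78, Laptm5 0.74, Anapc15 0.74, Pex19 0.73 and Golga2 0.70. Tmem173 had 0.67, Grn 0.63, Cd37 0.61 and Cd68 0.50. Closeness to the mean does not show that a gene is one of microglia, and absence from the lists does not show that it is not.

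Other homeostatic genes were read from a separate list of 22, of which 19 were tested. For P301S against WT in normoxia 1 of the 19 was lower and 0 were higher, where 3.78% and 2.57% of all tested genes were. Averaged over conditions the counts were again 1 lower and 0 higher, against 7.76% and 5.35% of all genes. The gene was Cd81 in both, a tetraspanin that many brain cells carry. It averaged 181 ± 10.02 CPM in P301S hypoxia, 179 ± 8.97 in P301S normoxia, 196 ± 9.07 in WT hypoxia and 204 ± 11.4 in WT normoxia. Its log2 fold change was -0.18 in normoxia (SE 0.05, adjusted p = 0.0275) and -0.15 averaged over conditions (SE 0.03, adjusted p = 0.00490). The call in normoxia was lost on leaving out any of 7 libraries (adjusted p from 0.0504 to 0.0983), and the averaged one was kept in all 23 such fits. Fitting only the groups compared also ended the call in normoxia (-0.19, adjusted p = 0.0716). That fit called 368 of all genes, against 1130 in the main fit. Fcrls, an Fc receptor-like gene of mouse microglia, averaged 7.81 ± 3.11, 7.84 ± 3.98, 9.38 ± 3.34 and 16.2 ± 5.55 CPM in the same order of groups. Its log2 fold change for P301S against WT in normoxia was -1.06 (SE 0.33, adjusted p = 0.0581).

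For hypoxia against normoxia in P301S 1 of the same 19 was higher and 0 were lower, against 0.18% and 0.23% of all genes. Averaged over genotypes it was again 1 higher and 0 lower, against 0.652% and 0.675%. In WT 0 of 19 passed, and the lowest adjusted p was 0.301. The gene was Mertk in both, a receptor for phagocytosis of dying cells that astrocytes also express. Its lowest, median and highest values were 53.1, 72.8 and 86.9 CPM in P301S hypoxia, against 44.6, 49.3 and 58.0 CPM in P301S normoxia. In WT they were 51.0, 54.8 and 72.4 CPM in hypoxia, against 41.4, 48.3 and 55.0 CPM in normoxia. Hypoxic libraries were mostly higher, with overlap in both genotypes. The log2 fold change was 0.51 in P301S (SE 0.11, adjusted p = 0.0438), 0.26 in WT (SE 0.10, adjusted p = 0.312) and 0.38 averaged over genotypes (SE 0.08, adjusted p = 0.0123). In P301S, leaving out any of 8 libraries ended the call (adjusted p from 0.0592 to 0.133). So did a choroid plexus covariate (0.46, adjusted p = 0.0604) and fitting only the groups compared (0.51, adjusted p = 0.0584). Without a filter on low counts it was lost as well (0.50, adjusted p = 0.0516). Calls over all genes were 47, 69 and 38 in these fits, in that order, against 73 in the main fit. Without the 6 libraries lowest in choroid plexus markers the averaged value was 0.37 with an adjusted p of 0.0835, and that in P301S 0.44 with 0.129. Of 7 tested astrocyte markers 1, Fgfr3, was also higher in the averaged comparison (adjusted p = 0.0480), and the astrocyte markers summed to 4407 to 4908 CPM in P301S hypoxia, 4158 to 5000 in P301S normoxia, 4114 to 4733 in WT hypoxia and 4011 to 4623 in WT normoxia. Gfap, wholly under another gene, was at 0. The part of astrocytes in the result was not tested.

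Among 14 microglial transcription factors, 13 were tested and Runx1 was the only one higher in P301S, in normoxia and averaged over conditions, where 2.57% and 5.35% of all tested genes were higher. Runx1 averaged 1.79 ± 0.362 CPM in P301S hypoxia, 2.19 ± 0.481 in P301S normoxia, 1.23 ± 0.240 in WT hypoxia and 1.39 ± 0.0538 in WT normoxia. The log2 fold change of P301S against WT was 0.66 in normoxia (SE 0.16, adjusted p = 0.0189), 0.53 in hypoxia (SE 0.17, adjusted p = 0.0958) and 0.59 averaged (SE 0.12, adjusted p = 0.00191). With trends in gene length and GC content removed, 419 of all genes were called in normoxia, against 1130 in the main fit. The value of Runx1 there was 0.52 with an adjusted p of 0.102. Without the 6 libraries lowest in choroid plexus markers it was 0.66 with an adjusted p of 0.0529. The call in normoxia was also lost with only the groups compared (0.65, adjusted p = 0.0504, with 368 of all genes called). Leaving out either of 2 libraries ended it too (adjusted p from 0.0531 to 0.0547). The averaged call was kept in all 9 alternatives and all 23 fits with 1 library left out. Egr1, an immediate early gene of neurons and myeloid cells, was lower in hypoxia averaged over genotypes, at a log2 fold change of -0.43 (SE 0.09, adjusted p = 0.0261, and 0.0649 without P301S normoxia replicate 3), where 0.675% of all genes were lower. Irf8 had 0 counts under an overlapping gene.

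Of 18 pan-microglia and myeloid genes 16 were tested, and 1 passed, close to the share of all genes (5.35% higher, 13.1% in either direction). Inpp5d, which encodes the phosphatase SHIP1, was higher in P301S averaged over conditions, at 0.20 (SE 0.06, adjusted p = 0.0368). The call was lost on leaving out any of 13 libraries and with length and GC trends removed (0.17, adjusted p = 0.0930). It was also lost without the 6 libraries low in choroid plexus markers (adjusted p = 0.132) and without a filter on low counts (0.0662). Calls over all genes fell from 2333 to 1049 with the trends removed. They fell to 1288 without the 6 libraries and to 1719 without the filter. The complement gene C1qa was not called in the same comparison, at -0.26 (SE 0.11, adjusted p = 0.123).

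Disease-associated genes numbered 26, of which 21 were tested. For P301S against WT averaged over conditions 1 was higher and 3 were lower, where 5.35% and 7.76% of all genes were. Igf1, a growth factor, had a log2 fold change of 0.27 (SE 0.08, adjusted p = 0.0327). Those lower were the ferritin chain Fth1 at -0.18 (adjusted p = 0.0166), the protease Ctsb at -0.13 (adjusted p = 0.0121) and the protease Ctsd at -0.25 (adjusted p = 0.0463). Each is also expressed outside microglia. Fth1 has processed copies elsewhere in the genome that can share reads with it, and 853 of the 2351 exon bases of Ctsd lie under no other gene, so both values are uncertain. In normoxia alone Fth1 (-0.33, adjusted p = 0.0102) was lower and Cst7 (1.34, adjusted p = 0.0235) higher, the last at a mean of 0.649 CPM in P301S normoxia and 0.252 CPM in WT normoxia. That is 1 of 21 in each direction, against 3.78% of all genes lower and 2.57% higher. Removing trends in gene length and GC content ended the calls of Igf1 (0.14, adjusted p = 0.199) and Ctsd (-0.20, adjusted p = 0.0724). It also ended those of Fth1, at -0.093 averaged (adjusted p = 0.305) and -0.23 in normoxia (adjusted p = 0.0912). With those trends removed, 1049 of all genes were called averaged over conditions (2333 in the main fit) and 419 in normoxia (1130). Fitting only the groups compared ended the call of Fth1 in normoxia (-0.33, adjusted p = 0.0526), where 368 of all genes were called. Ctsd was not called without a filter on low counts (adjusted p = 0.0782) or with a covariate of other microglia genes (0.0564). Without the 6 libraries low in choroid plexus markers Igf1 (adjusted p = 0.210), Fth1 averaged (0.0550) and Cst7 (0.0710) were not called. Leaving out 1 library ended that of Ctsd in 16 cases, that of Igf1 in 13 and that of Cst7 in 2.

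Each list held fold changes of both signs in both averaged comparisons, in unequal numbers. For P301S against WT the median log2 fold change was 0.01 for the other homeostatic genes, -0.04 for the pan-microglia genes, 0.08 for the transcription factors and -0.13 for the disease-associated genes, against 0.01 over all tested genes. The same medians for hypoxia against normoxia were -0.04, -0.09, -0.03 and -0.08, against 0.00 over all genes. For P301S against WT 11 of 19, 7 of 16, 8 of 13 and 6 of 21 fold changes were positive, in the same order of lists. For hypoxia against normoxia 7 of 19, 3 of 16, 6 of 13 and 8 of 21 were. Most of the 21 disease-associated genes did not pass the test.

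**Figure D5:**
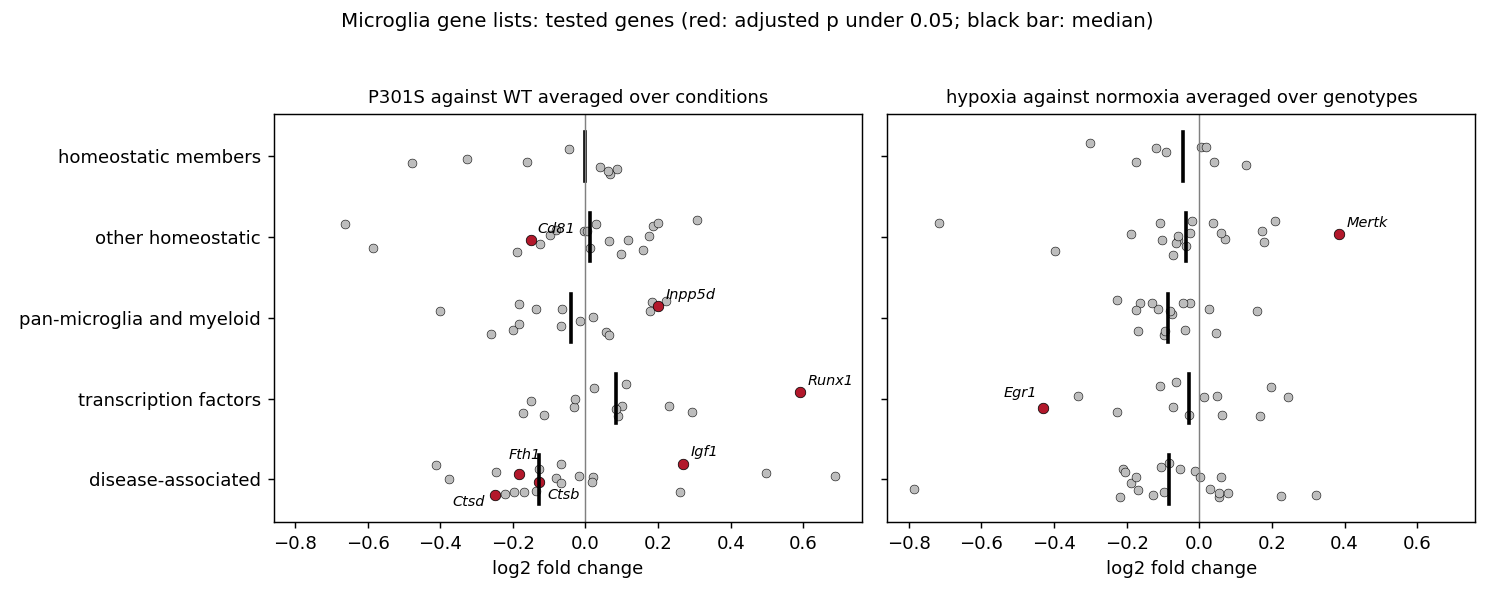
Log2 fold changes (x axis) of the tested genes in 5 microglia lists (rows), for genotype averaged over conditions (left) and hypoxia averaged over genotypes (right). Red points passed an adjusted p under 0.05 and black bars are medians, which lie between -0.13 and 0.08 on the left.

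Ligands and partners of these receptors were listed as 23 genes, of which 19 were tested, and 1 was called. Cd47, a ligand that restrains phagocytosis, was higher in P301S averaged over conditions, at 0.19 (SE 0.04, adjusted p = 0.00619), where 5.35% of all genes were higher. It was not called with length and GC trends removed (0.11, adjusted p = 0.0999) or without the 6 libraries low in choroid plexus markers (0.19, adjusted p = 0.0539). Calls over all genes fell in both fits, from 2333 to 1049 and to 1288. None of the other ligands and partners tested passed in any of the 7 comparisons. Il34, a ligand of Csf1r made by neurons, had -0.17 for P301S against WT in normoxia (SE 0.09, adjusted p = 0.259). Nrros, which presents transforming growth factor beta to microglia, had 0.35 for hypoxia against normoxia in P301S (SE 0.10, adjusted p = 0.106).

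Library totals lay between 19.1 and 25.8 M counts. Hippocampus markers summed to 1099 to 1491 CPM over the series, with 7 of 8 tested and Cpne7, wholly under another gene, at 0. Among markers of other myeloid cells, the 10 border macrophage markers summed to 21.3 to 30.0 CPM in P301S hypoxia and 21.3 to 28.7 in P301S normoxia. They summed to 18.4 to 33.9 CPM in WT hypoxia and 19.4 to 26.2 in WT normoxia. The 10 monocyte and neutrophil markers summed to at most 3.24, 2.10, 4.24 and 2.79 CPM in the same order. Of these markers 7 and 2 were tested and 0 passed by edgeR in any of the 7 comparisons, and none was at 0 in all libraries. At most 13.1% of all tested genes passed in a comparison. For scale, Aif1 had 3.70 to 13.2 and Olfml3 6.66 to 21.1 CPM over the series. Olfml3 had a correlation of 0.35 with the border macrophage markers between libraries, where the other members had -0.37 to -0.13. The part of border macrophages in the values of Olfml3 was not tested. Choroid plexus markers were low in 6 libraries, 2 of P301S hypoxia, 3 of WT hypoxia and 1 of WT normoxia. They summed to 69.3 to 3688 CPM over the series. Neither leaving out these 6 libraries nor adding a choroid plexus covariate led to a call of any of the 8 members. Leaving them out ended calls of 7 genes of the other lists, each named above. Calls fell over all genes too, from 2333 to 1288 for genotype averaged over conditions and from 1130 to 389 for genotype in normoxia. They fell from 236 to 60 for hypoxia averaged over genotypes and from 73 to 45 for hypoxia in P301S. The cause of these losses was not tested.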

How the data were processed

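The members and all gene lists were chosen with earlier results of these data known. Whole hippocampus RNA was sequenced as 23 stranded mRNA libraries. Per the file headers, the authors deposited counts per gene made with featureCounts 1.6.2 on paired reads after removal of duplicates, over whole gene bodies of the Ensembl 90 annotation and without a strand setting. HISAT2, build mm10 and DESeq2 1.6.3 are named in the submitters' processing notes. Symbols came from GENCODE M21 (52403 of 52636 genes).

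Groups followed genotype and condition in the labels. Genes were kept by filterByExpr (minimum count 10). Counts were scaled by TMM and tested with edgeR 4.0.16 (quasi-likelihood, robust, all 23 libraries in one fit) in R 4.3.3, for 7 comparisons, with Benjamini-Hochberg adjustment over 17788 genes and a threshold of 0.05. The averaged comparisons take the mean of the effect in both levels of the other factor. All p-values and adjusted p-values are from edgeR unless DESeq2 1.42.0 is named. Log2 CPM used a prior count of 2. Intervals are at 95%. The text names all members, of the genes overlapping each the one with the largest overlap, the genes of other lists past the threshold or among the 3 with the lowest p, and the 10 genes most like the members' mean. The procedure was tested on simulated data. Alternatives were other scalings, no filter, older edgeR deviances, DESeq2, fewer samples, length and GC trends, choroid and microglial covariates, and leaving out libraries. No pair of replicates was as alike as a library deposited again would be, the lowest chi-square over degrees of freedom being 5.03. Of the chosen markers of other cells, 0 of 8 tested oligodendrocyte, 0 of 8 endothelial and 0 of 7 cell cycle genes passed in any comparison. Of all tested genes 0.0394% to 13.1% passed, by comparison, so 0 in lists this short says little about those cells. Among 8 neuron markers Map2 was higher for P301S against WT in hypoxia, where 1.87% of all genes passed. Zbtb20, of 7 hippocampus markers, was higher there and averaged over conditions (5.35% of all genes higher). Of 7 astrocyte markers Slc1a2 was higher and Aldoc lower for genotype averaged over conditions (5.35% and 7.76% of all genes). Fgfr3 was higher for hypoxia averaged over genotypes (0.652%).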

Additional observations from a re-analysis of the deposited data

Results flagged for a closer look

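In 3 of 32 checks, each of 1 member in 1 group, a library stood apart from the others of its group by the gap to its nearest neighbour. Chance gives about 1 in 20. Aif1 was lowest in P301S hypoxia replicate 2, at 3.95 CPM, where the other 5 libraries had 6.01 to 7.01 CPM. Olfml3 was highest in P301S hypoxia replicate 5, at 13.4 CPM, where the others had 7.26 to 9.25 CPM. Without that library the averaged genotype comparison of Olfml3 passed the threshold (log2 fold change -0.56, adjusted p = 0.0256). Selplg was highest in WT hypoxia replicate 6, at 31.2 CPM, where the others had 26.8 to 27.5 CPM. The cause of these values was not tested.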

How the results depend on the processing

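Of 1456 member values under 10 alternatives and 23 fits with 1 library left out, 1376 kept direction and side of the threshold, 7 newly passed and 73 changed sign. The sign changes concerned 21 of 56 results, none called, with adjusted p of at least 0.647. Members called numbered 1 with DESeq2 for P301S against WT averaged over conditions, and 0 to 2 with 1 library left out. Over all genes DESeq2 called 2758 there, and the fit without P301S normoxia replicate 1, where 2 members passed, 2913. The main fit called 2333. For P301S against WT in normoxia the members called numbered 0 to 1 with 1 library left out, and otherwise 0. Without P301S normoxia replicate 1, where 1 member passed, 1914 of all genes were called, against 1130 in the main fit. With 1 library left out, calls over all genes ranged from 365 to 2069 in normoxia and from 1550 to 2913 averaged over conditions. For hypoxia against normoxia in P301S they ranged from 7 to 154, against 73 in the main fit. The fit with older edgeR deviances was an alternative, not the main fit, and was added after seeing the data. The covariate from Xist was not run, because Xist lies wholly under another gene and had 0 counts, while 4 Y-linked genes had at least 873 counts in every library. Fitting only the groups compared gives no value for the interaction or the averaged comparisons. No paired analysis was possible because replicate numbers follow accession order and the labels pair no libraries. Errors were widest for Aif1 and Olfml3, whose spread within groups (0.42 on the log2 scale) exceeds counting error (0.11 and 0.09), and overlap with other genes removes P2ry12 and Gpr34. The cause of the changes below was not tested.

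Values that changed sign, as log2 fold changes, were these. For hypoxia against normoxia in WT, Selplg had -0.00011 with DESeq2, -0.0011 without a filter and -0.049 with the choroid covariate. Csf1r had 0.011 with length and GC trends removed, 0.072 with the microglial covariate and 0.054 without the 6 libraries low in choroid markers. Siglech had 0.012 with the microglial covariate and 0.070 without the 6 libraries. For hypoxia against normoxia in P301S, Aif1 had -0.031 and Selplg -0.0069 with the choroid covariate, and -0.045 and -0.038 without the 6 libraries. Averaged over genotypes, Csf1r had -0.023 and Selplg -0.028 with the choroid covariate. With length and GC trends removed, Cx3cr1 had -0.036 for P301S against WT in normoxia and Csf1r 0.0033 in hypoxia. Selplg had -0.031 for P301S against WT in hypoxia without the 6 libraries. For the interaction, Cx3cr1, Csf1r and Selplg had -0.022, -0.017 and -0.031 with the microglial covariate, and -0.017, -0.044 and -0.13 without the 6 libraries.

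With 1 library left out, these results changed sign within the ranges given. P301S against WT in hypoxia ranged from -0.20 to 0.0037 for Aif1, -0.062 to 0.0025 for Csf1r and -0.0094 to 0.057 for Sall1. Hypoxia against normoxia in P301S ranged from -0.10 to 0.14 for Aif1, -0.037 to 0.15 for Csf1r and -0.037 to 0.14 for Selplg. Hypoxia against normoxia averaged over genotypes ranged from -0.028 to 0.064 for Csf1r and -0.018 to 0.072 for Selplg. Hypoxia against normoxia in WT ranged from -0.052 to 0.017 for Csf1r and -0.045 to 0.057 for Selplg. The interaction ranged from -0.017 to 0.17 for Csf1r, -0.031 to 0.086 for Cx3cr1, -0.0084 to 0.29 for Olfml3 and -0.038 to 0.14 for Selplg. P301S against WT in normoxia ranged from -0.016 to 0.11 for Cx3cr1, -0.074 to 0.12 for Selplg and -0.15 to 0.00060 for Siglech. P301S against WT averaged over conditions ranged from -0.0017 to 0.098 for Selplg and -0.012 to 0.062 for Siglech.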

Other observations

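Other microglial genes met the same counting limit as P2ry12 and Gpr34. Of 88 genes in 5 microglia lists, 8 lay wholly under another gene and all 8 had 0 counts in every library. Besides P2ry12 and Gpr34 they were the major histocompatibility light chain B2m, the chemokine Ccl6, the transcription factor Irf8, the nucleotide receptor P2ry13, the checkpoint protein Vsir and Ecscr. Itgam, the integrin known as CD11b, and the adenosine receptor Adora3 had 0 counts with 99.92% and 99.88% of their bodies covered. Among 21896 protein-coding genes 1265 (5.78%) lay wholly under another gene, and 0 of these were tested.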
